A study of Mus musculus with 9 samples.

Results

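The 42 genes described here encode the enzymes that write and erase methyl marks on DNA and histones, with the core partners they work with. They were taken as a list of named DNA methyltransferases, TET dioxygenases, histone lysine methyltransferases and histone demethylases, found by their Ensembl identifiers and symbols among 54532 genes of a mouse expression table. The rule itself uses no measured value, but the list was proposed with earlier results of these data known. All 42 were found.

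The 9 RNA-seq libraries came from vascular tissue of 24-week-old C57BL/6 mice, with 3 libraries in each of 3 groups. The SAHH-het+betaine group was labelled ApoE-/-/SAHH+/- with betaine, the SAHH-het group ApoE-/-/SAHH+/- and the SAHH-WT group ApoE-/-/SAHHWT, so that every group, the comparison group included, carries the ApoE-/- label. The dose, route and duration of betaine are not stated in the labels used here, nor is the vessel taken. Nothing in the labels ties each library to an animal of its own. The p-values thus measure only the spread between these libraries, which may be technical. Groups are called by their labels throughout.

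Methyltransferases take the methyl group from S-adenosylmethionine and release S-adenosylhomocysteine, which inhibits them in turn. SAHH, encoded by Ahcy, removes that product by splitting it into homocysteine and adenosine, and betaine gives a methyl group that turns homocysteine back into methionine. DNA methyltransferases and the histone enzymes that mark H3K9 and H3K27 are linked to silent chromatin, those that mark H3K4, H3K36 and H3K79 to transcribed genes, and TET dioxygenases and histone demethylases take the marks off again. The comparisons ask whether the RNA of these enzymes differs with SAHH dose and with betaine, which is a separate question from the amounts of the marks themselves, not measured here.

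Values are FPKM, fragments scaled by exon length and by a divisor for each library, so levels can be compared between genes. That divisor followed size factors, as described with the processing, and not the total of fragments. The promoters of 3 of the genes, those with the smallest p-values between SAHH-het and SAHH-WT libraries, are shown because most promoters of these enzymes share a feature. Each line gives the 150 bases before the RefSeq transcription start on GRCm38.p6, read 5′ to 3′ on the gene's strand, with each CpG in capitals. Suz12 is shown from chr11:79992956-79993105 on the plus strand, Setd7 from chr3:51560824-51560973 on the minus strand and Setd1a from chr7:127777239-127777388 on the plus strand. The RefSeq starts differ from the GENCODE gene bounds given below for Setd1a and Setd7. The Setd1a stretch lies inside bounds that begin at 127776670, and the Setd7 stretch lies partly inside bounds that end at 51560879.
Suz12: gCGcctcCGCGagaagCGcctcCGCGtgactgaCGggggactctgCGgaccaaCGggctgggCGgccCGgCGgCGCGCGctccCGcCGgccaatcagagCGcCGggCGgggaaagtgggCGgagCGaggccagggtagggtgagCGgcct
Setd7: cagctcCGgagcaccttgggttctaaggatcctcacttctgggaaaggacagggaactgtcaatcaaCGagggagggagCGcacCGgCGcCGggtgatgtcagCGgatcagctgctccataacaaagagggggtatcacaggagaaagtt
Setd1a: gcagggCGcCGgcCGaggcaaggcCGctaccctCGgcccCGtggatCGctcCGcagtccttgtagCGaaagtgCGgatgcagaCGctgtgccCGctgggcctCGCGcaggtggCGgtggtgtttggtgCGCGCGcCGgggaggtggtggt
These stretches hold 23 CpG in Suz12, 7 in Setd7 and 19 in Setd1a. The set of RefSeq promoters used here held 44 for 32 of the 42 genes and none for the rest. Over the 250 bases before the start these had a median of 23.5 CpG, from 0 to 51, against a median of 6 over all 32851 promoters. At least 10 CpG were found in 40 of the 44, or 90.9%, against 37.8% of all promoters. The letters GGGCGG or CCGCCC, a GC box on either strand, occurred in 31 of the 44, or 70.5%, against 32.7% of all promoters. These are counts of letters, and CpG-rich sequence contains GGGCGG more often by its composition alone.

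The genes were expressed at low to moderate levels. Over the 9 libraries, 1 gene averaged more than 10 FPKM, 16 averaged 5 to 10, 20 averaged 1 to 5 and 5 averaged under 1 FPKM. Ehmt2, which with its partner Ehmt1 places mono- and dimethylation on H3K9, was the highest at a mean of 19.2 FPKM. It was followed by the PRC2 subunit Suz12 at 9.23 FPKM, the H3K79 methyltransferase Dot1l at 8.34 FPKM and the PRC2 catalytic subunit Ezh1 at 7.89 FPKM. The lowest were Tet1 at 0.134 FPKM, the H3K9 methyltransferase Suv39h2 at 0.390 FPKM and the de novo DNA methyltransferase Dnmt3b at 0.539 FPKM. Behind the values lay 15837600 to 17381974 fragments per library, as read back from the FPKM steps. More than 100 fragments supported 34 of the 42 genes in every library, and none of the 42 was at 0 in any library. Suv39h2 had the fewest, 9 fragments in SAHH-het 3, with an exact 95% Poisson interval of 4.12 to 17.1 that covers counting error only. Tet1 and Suv39h2 stayed below the mean of 0.5 FPKM needed to enter the tests, which left 40 of the 42 genes among 15610 tested.

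**Figure D1:**
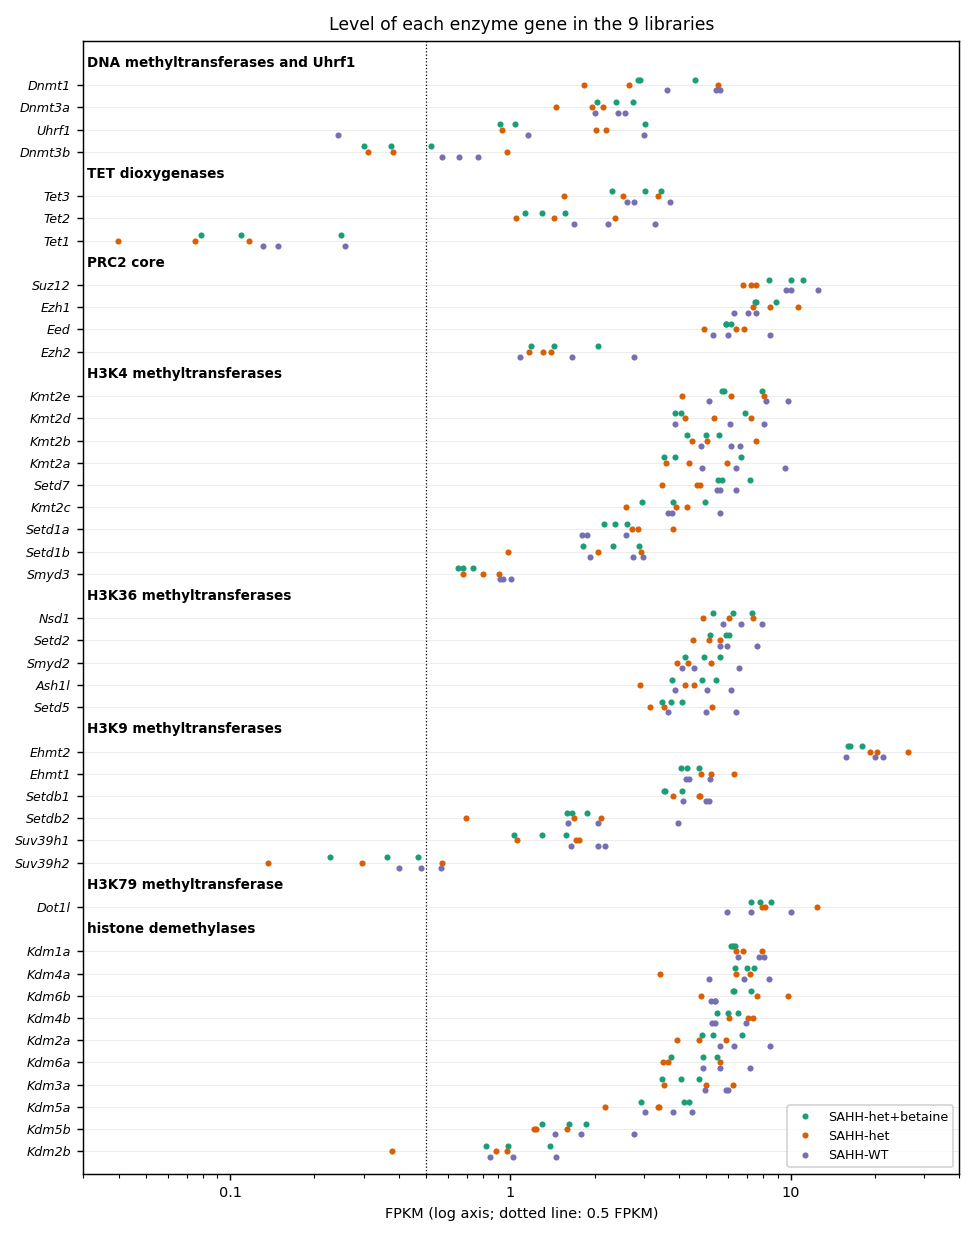
FPKM of the 42 enzyme genes in each of the 9 libraries on a log axis, grouped by role and sorted by mean level within a role, with 1 point per library coloured by group. Ehmt2 lies to the right of all others, Tet1 and Suv39h2 average below the dotted line at 0.5 FPKM, and for most genes the points of the 3 groups overlap.

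Several facts of the libraries bear on these genes. Ahcy measured 7.66 to 9.70 FPKM in SAHH-het+betaine libraries, 3.48 to 4.75 FPKM in SAHH-het libraries and 7.17 to 11.5 FPKM in SAHH-WT libraries, so that the 3 SAHH-het libraries lay below all others, while those labelled SAHH-het+betaine lay within the SAHH-WT range. Apoe measured 5.51 to 8.88 FPKM in SAHH-het+betaine libraries, 149 to 225 FPKM in the libraries labelled SAHH-het and 2.91 to 6.11 FPKM in SAHH-WT libraries. The Apoe level in the libraries labelled SAHH-het goes against the ApoE-/- label they share with the other groups. The Ahcy level in the libraries labelled SAHH-het+betaine, a mean of 8.66 FPKM against 8.90 FPKM in SAHH-WT libraries, goes against their SAHH+/- label. Every difference below that involves either group carries these limits. The tissue taken also varied, within groups and between them. A list of 7 adventitial fibroblast genes summed to 204, 192 and 220 FPKM in SAHH-het+betaine libraries, 66.1, 85.2 and 106 FPKM in SAHH-het libraries, and 129, 205 and 277 FPKM in SAHH-WT libraries, so that the SAHH-het libraries were the 3 lowest. A list of 7 endothelial genes summed to 152, 210 and 277 FPKM in SAHH-het+betaine libraries, 273, 582 and 246 FPKM in SAHH-het libraries, and 131, 208 and 301 FPKM in SAHH-WT libraries, with overlap. A list of 7 B cell genes summed to 24.6 to 170 FPKM in SAHH-het+betaine libraries, 11.5 to 21.1 FPKM in SAHH-het libraries and 5.02 to 332 FPKM in SAHH-WT libraries. A list of 6 adrenal cortex genes reached 9773 FPKM in SAHH-WT 1 and at most 5.52 FPKM in the other libraries. Brown adipocyte genes, a list of 6, summed to 4952 to 13293 FPKM in SAHH-het+betaine libraries and 6257 to 13281 FPKM in SAHH-het libraries. In SAHH-WT libraries they summed to 513 to 10302 FPKM, with SAHH-WT 1 the lowest. In bulk tissue, fewer cells of a type and less RNA per cell cannot be told apart. All libraries were alike in that 4 Y-linked genes were listed at 0 and Xist lay between 22.9 and 50.8 FPKM, which bears on the X-linked members Kdm6a and Suv39h1.

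No enzyme gene passed the test in any of the 3 comparisons. Called genes are those with a Benjamini-Hochberg adjusted p under 0.05 over all 15610 genes in limma on log2(FPKM + 0.5). Such a difference understates the change of low genes. In SAHH-het against SAHH-WT libraries, 0 of 40 enzyme genes were called, where 4 genes were called among all those tested (0.0256%). The number of genes called among all was 1 with the replicate number as a block. The lowest adjusted p of an enzyme gene was 0.349, from limma. At an unadjusted limma p under 0.05, 1 enzyme gene was higher (2.5%, against 7.3% of all genes) and 2 were lower (5%, against 5.16%). In SAHH-het+betaine against SAHH-het libraries, 0 of 40 were called, where 3 genes were called among all (0.0192%), or 1 with the replicate block. There, 2 enzyme genes were higher at an unadjusted limma p under 0.05 (5%, against 3.63% of all genes) and 0 were lower (against 4.4%). In SAHH-het+betaine against SAHH-WT libraries, 0 of 40 were called and 0 of all genes (0%), and 0 enzyme genes were at an unadjusted limma p under 0.05 in either direction, against 5.09% of all genes higher and 2.93% lower. With voom on the recovered fragments no enzyme gene was called either.

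The size of differences that these libraries allow can be read from the intervals. The 95% interval of a log2 difference extended a median of 0.53 to either side, from 0.34 for the least variable gene to 1.35 for Uhrf1. For 33 of 40 genes in SAHH-het against SAHH-WT libraries the interval stayed within a 2-fold difference of FPKM + 0.5 in either direction. The exceptions were Dnmt1, Uhrf1, Tet2, Kmt2a, Setd1b, Setdb2 and Kdm2b. The same held for 37 of 40 genes in SAHH-het+betaine against SAHH-het libraries. In SAHH-het+betaine against SAHH-WT libraries it held for 34 of 40. A 2-fold limit on FPKM + 0.5 allows a larger fold difference of FPKM itself in low genes, such as Dnmt3b (mean 0.539 FPKM).

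The enzyme genes leaned to lower values in both groups labelled SAHH+/- against SAHH-WT without passing the test as single genes. In SAHH-het minus SAHH-WT, the median log2 difference of the 40 genes was -0.27, against 0.01 over all tested genes, and 32 of 40 (80%) lay below 0, against 49.1% of all genes. In SAHH-het+betaine minus SAHH-WT the median was -0.14, against -0.02 over all genes, with 30 of 40 (75%) below 0 against 52.1%. In SAHH-het+betaine minus SAHH-het the median was 0.02, against -0.01 over all genes, with 20 of 40 (50%) below 0 against 50.9%. The comparisons share libraries, so their values are not independent of each other. No change of scaling turned the first or second of these medians round. The size of the lean depended on single libraries. Without SAHH-het 1 the median was -0.13, and without SAHH-WT 2 it was -0.17. Without SAHH-WT 2 the median of SAHH-het+betaine minus SAHH-WT was -0.02, and without SAHH-WT 3 it was -0.24. All 6 brown adipocyte genes lay above 0 in SAHH-het minus SAHH-WT (median 1.93) and in SAHH-het+betaine minus SAHH-WT (median 1.57). Of 15 proliferation genes 14 were tested, and 13 lay below 0 in the first of these (median -0.53) and 14 in the second (median -0.29). In both comparisons all 7 B cell genes (medians -1.94 and -0.37) and all 7 T cell genes (-1.69 and -0.40) lay below 0. So did all 5 cardiac muscle genes (-3.39 and -0.24) and all 6 adrenal cortex genes (-3.38 in both). All 6 skeletal muscle genes lay above 0 in both (2.41 and 1.67). The part of tissue content in the lean was not tested.

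**Figure D2:**
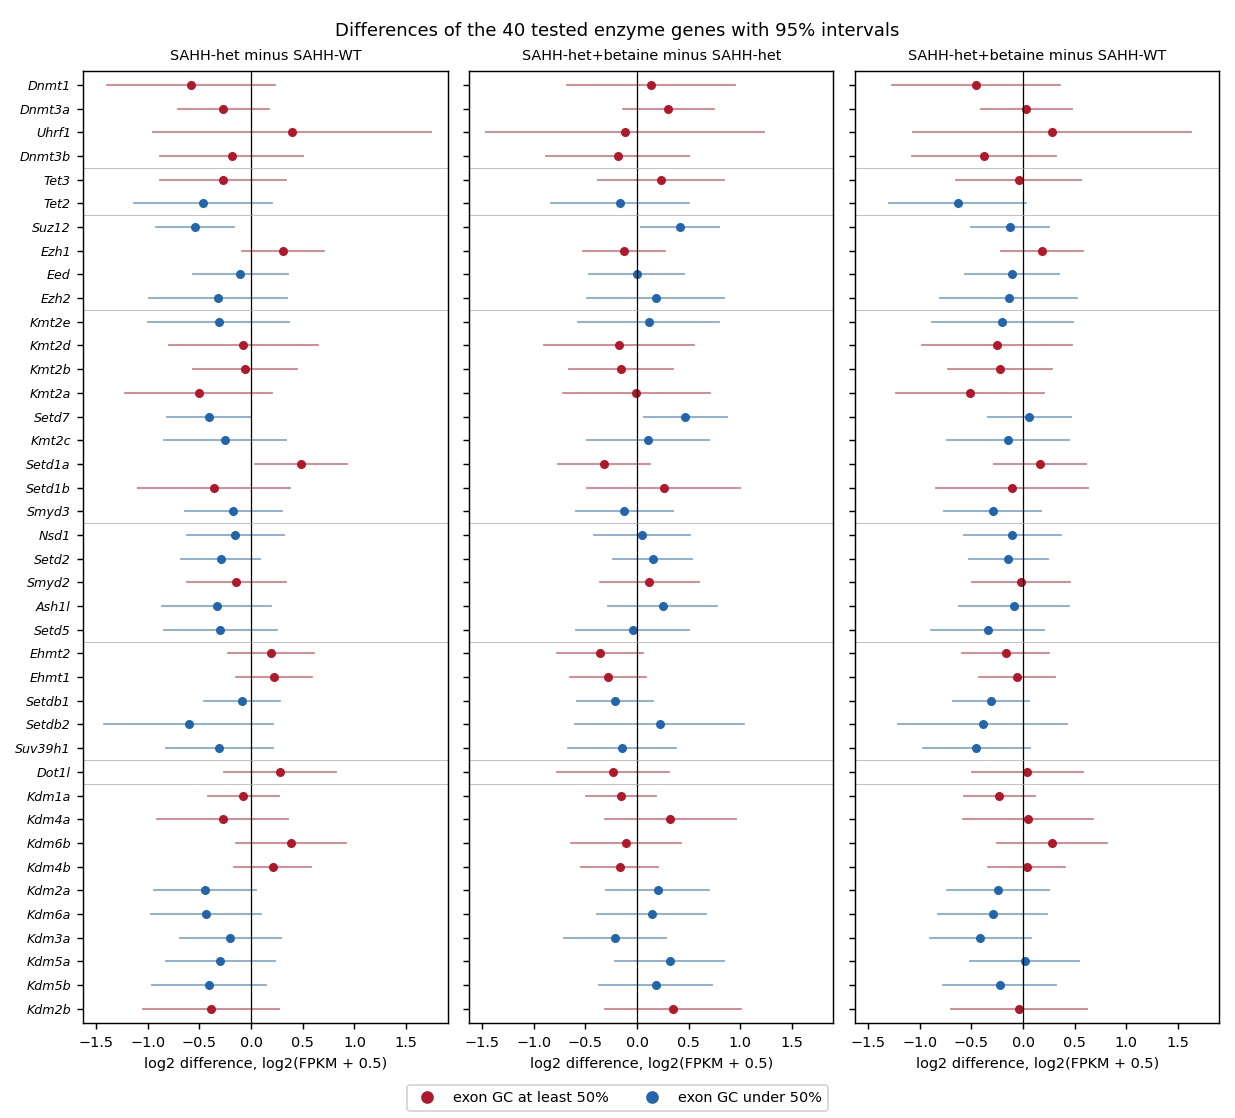
Log2 differences of the 40 tested enzyme genes in the 3 comparisons with 95% intervals from limma, by role and coloured by the GC content of the exons. In SAHH-het minus SAHH-WT, 32 of 40 points lie left of 0, all 20 genes under 50% GC among them, and the interval leaves 0 for Suz12, Setd7 and Setd1a.

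The clearest difference among single genes was in PRC2, the complex that methylates H3K27, and it lay in the scaffold subunit Suz12 (ENSMUSG00000017548, chromosome 11, 79993106 to 80034123, plus strand, GRCm38). Suz12 measured 11.0, 10.02 and 8.37 FPKM in SAHH-het+betaine libraries, 6.74, 7.54 and 7.22 FPKM in SAHH-het libraries, and 9.61, 12.5 and 10.1 FPKM in SAHH-WT libraries. Every SAHH-het library lay below every library of the other groups. The mean FPKM was 9.81 ± 1.34 in SAHH-het+betaine, 7.17 ± 0.400 in SAHH-het and 10.7 ± 1.55 in SAHH-WT libraries (SD, n = 3 each). The log2 difference was -0.54 (SE 0.165, adjusted p = 0.349) for SAHH-het minus SAHH-WT. For SAHH-het+betaine minus SAHH-het it was 0.42 (SE 0.165, adjusted p = 0.604). Both share the SAHH-het libraries. Under the exon length and GC correction described below, the same differences were -0.36 and 0.31. The first kept its sign in all 27 settings tried, from -0.84 to -0.36, and the lowest adjusted limma p among them was 0.135. The fibroblast genes listed above were ordered the same way, with 7 of 7 below 0 in SAHH-het minus SAHH-WT (median -1.53) and 7 of 7 above 0 in SAHH-het+betaine minus SAHH-het (median 1.57). The endothelial genes went the other way, with 7 of 7 above 0 in the first (median 0.77) and 7 of 7 below 0 in the second (median -0.67). The part of these cells in Suz12 was not tested.

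Ezh1 and Ezh2 are the alternative catalytic subunits of PRC2, Ezh2 being the form of dividing cells and Ezh1 that of resting cells. Ezh1 measured 7.48, 7.5 and 8.85 FPKM in SAHH-het+betaine libraries, 7.31, 10.6 and 8.46 FPKM in SAHH-het libraries, and 6.26, 7.51 and 7.03 FPKM in SAHH-WT libraries. SAHH-het 1 lay within the SAHH-WT range, so the groups overlapped, with a log2 difference of 0.31 for SAHH-het minus SAHH-WT (SE 0.174, adjusted p = 0.461), or 0.17 without SAHH-het 2. Ezh2 was lower than Ezh1 in every library. The ratio of Ezh1 to Ezh2 was 3.66, 5.26 and 7.45 in SAHH-het+betaine libraries, 6.25, 7.62 and 6.48 in SAHH-het libraries, and 5.80, 2.72 and 4.25 in SAHH-WT libraries. All SAHH-het ratios lay above all SAHH-WT ratios, while the SAHH-het+betaine ratios spanned both. In each group the library highest in Ezh2 was also the highest in a list of 15 proliferation genes. The list summed to 53.8, 29.0 and 31.4 FPKM in SAHH-het+betaine libraries, 28.3, 49.7 and 26.6 FPKM in SAHH-het libraries, and 37.3, 65.9 and 46.0 FPKM in SAHH-WT libraries, and its part in the ratio was not tested. Eed, which binds trimethylated H3K27 and stimulates the enzyme, had group means of 5.97, 6.03 and 6.58 FPKM in SAHH-het+betaine, SAHH-het and SAHH-WT libraries.

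**Figure D3:**
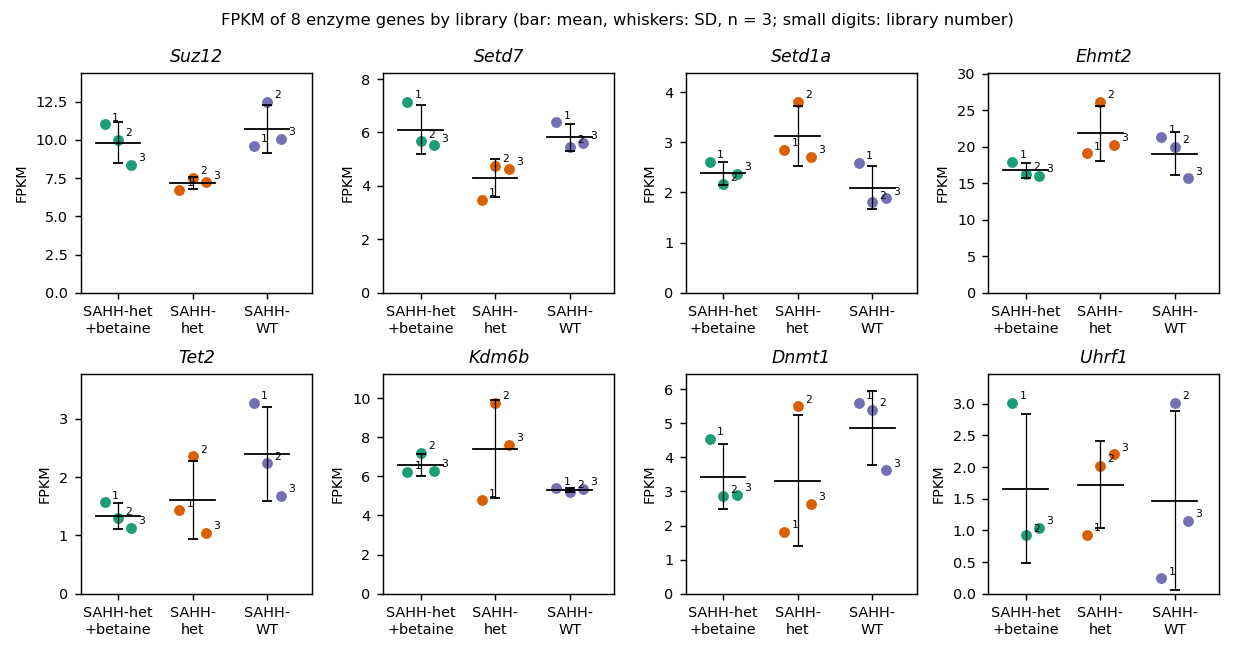
FPKM of 8 enzyme genes in every library, with the group mean as a bar and the SD as whiskers (n = 3), groups from left to right SAHH-het+betaine, SAHH-het and SAHH-WT. Suz12 and Setd7 are lowest in all 3 SAHH-het libraries, while Uhrf1 spans 0.242 to 3.01 FPKM within the SAHH-WT group alone.

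Methylation of H3K4 marks promoters and enhancers of active genes. Of the genes grouped under H3K4 here, 8 of 9 had a log2 difference below 0 in SAHH-het minus SAHH-WT. After the exon length and GC correction it was 7 of 9. The lower value with the smallest p was that of Setd7 (ENSMUSG00000037111, chromosome 3, 51515319 to 51560879, minus strand), which adds a single methyl group to H3K4 and also methylates proteins other than histones. Setd7 measured 7.15, 5.67 and 5.51 FPKM in SAHH-het+betaine libraries, 3.47, 4.75 and 4.64 FPKM in SAHH-het libraries, and 6.38, 5.46 and 5.61 FPKM in SAHH-WT libraries. As for Suz12, the SAHH-het libraries were the 3 lowest of the 9. The log2 difference was -0.41 for SAHH-het minus SAHH-WT (SE 0.176, adjusted p = 0.400). SAHH-het+betaine minus SAHH-het gave 0.47 (SE 0.176, adjusted p = 0.591). Its exons are 10813 bases long, of which 1098 are coding, and with the correction for exon length and GC the differences were -0.22 and 0.33. The fibroblast sums of the SAHH-het libraries were the 3 lowest as well, and the part of fibroblast and endothelial RNA in Setd7 was not tested.

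Setd1a (ENSMUSG00000042308, chromosome 7, 127776670 to 127800122, plus strand), the catalytic subunit of a complex that trimethylates H3K4, went the other way. It measured 2.61, 2.16 and 2.37 FPKM in SAHH-het+betaine libraries, 2.85, 3.81 and 2.71 FPKM in SAHH-het libraries, and 2.59, 1.80 and 1.88 FPKM in SAHH-WT libraries. The SAHH-het libraries were the 3 highest, though SAHH-het 3 exceeded SAHH-het+betaine 1 and SAHH-WT 1 by little. The log2 difference was 0.48 for SAHH-het minus SAHH-WT (SE 0.195, adjusted p = 0.389). SAHH-het+betaine minus SAHH-het gave -0.32 (adjusted p = 0.70), or -0.19 without SAHH-het 2. An annotated gene that shares 51.8% of its exon bases was listed at 0 in all libraries, so how the authors' counting split reads between the 2 is not known. Its paralogue Setd1b had a mean FPKM of 2.34 ± 0.529 in SAHH-het+betaine, 1.99 ± 0.977 in SAHH-het and 2.54 ± 0.546 in SAHH-WT libraries (SD, n = 3 each).

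The long MLL-family genes followed the library more than the group. Kmt2e, the family member with the highest level here, measured 7.88, 5.80 and 5.71 FPKM in SAHH-het+betaine libraries, 4.08, 8.06 and 6.11 FPKM in SAHH-het libraries, and 8.16, 9.79 and 5.11 FPKM in SAHH-WT libraries. Kmt2a, which keeps homeotic genes active, measured 6.65, 3.87 and 3.53 FPKM in SAHH-het+betaine libraries, 3.61, 5.94 and 4.33 FPKM in SAHH-het libraries, and 6.37, 9.56 and 4.83 FPKM in SAHH-WT libraries. In both genes the first SAHH-het+betaine library, the second SAHH-het library and the first 2 SAHH-WT libraries were high. Kmt2b ranged from 4.28 to 7.51 FPKM over the 9 libraries, and the enhancer enzymes Kmt2c and Kmt2d from 2.58 to 5.62 and from 3.86 to 8.04 FPKM, with overlap between all groups. For Kmt2a, SAHH-het+betaine minus SAHH-WT gave a log2 difference of -0.52 (SE 0.313, adjusted p = 0.644), or -0.27 without SAHH-WT 2. Smyd3, a low gene whose product has been assigned to H3K4 and to other targets, measured 0.734, 0.678 and 0.648 FPKM in SAHH-het+betaine libraries, 0.796, 0.677 and 0.912 FPKM in SAHH-het libraries, and 1.00, 0.941 and 0.920 FPKM in SAHH-WT libraries. Each SAHH-WT library lay above every other library, with a log2 difference of -0.29 for SAHH-het+betaine minus SAHH-WT (SE 0.204, adjusted p = 0.672).

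Among the DNA methyltransferases and Uhrf1, the values of Dnmt1 and Uhrf1 varied more between libraries than between groups. Dnmt1, which copies methylation to the new strand after replication, measured 4.55, 2.86 and 2.91 FPKM in SAHH-het+betaine libraries, 1.82, 5.50 and 2.64 FPKM in SAHH-het libraries, and 5.6, 5.39 and 3.62 FPKM in SAHH-WT libraries. SAHH-het 1 was the lowest of all and SAHH-het 2 was among the highest, so the groups overlapped. The interval of its log2 difference for SAHH-het minus SAHH-WT ran from -1.40 to 0.23. Uhrf1, which recognises hemimethylated DNA and brings Dnmt1 to it, had the widest range of the 42 genes. It measured 3.01, 0.920 and 1.04 FPKM in SAHH-het+betaine libraries, 0.934, 2.02 and 2.20 FPKM in SAHH-het libraries, and 0.242, 3.01 and 1.16 FPKM in SAHH-WT libraries. The highest library stood 12.5-fold above the lowest, and the lowest, SAHH-WT 1, rested on 21 fragments (exact 95% Poisson interval 13.0 to 32.1). The library highest in Uhrf1 within SAHH-het+betaine and within SAHH-WT was also the highest there in the B cell and proliferation sums, but in SAHH-het it was the library with the lowest of both sums. The part of these cells in Uhrf1 was not tested. Dnmt3a, a de novo methyltransferase, measured 2.75, 2.37 and 2.05 FPKM in SAHH-het+betaine libraries, 1.46, 2.13 and 1.96 FPKM in SAHH-het libraries, and 2.42, 2.56 and 2.0 FPKM in SAHH-WT libraries, with a log2 difference of 0.30 for SAHH-het+betaine minus SAHH-het (SE 0.193, adjusted p = 0.714). Its groups overlapped, and the difference was 0.18 without SAHH-het 1 and 0.20 with the exon length correction. Dnmt3b was below 1 FPKM in all libraries, and each SAHH-het+betaine library, at 0.521, 0.301 and 0.374 FPKM, lay below each SAHH-WT library, at 0.768, 0.655 and 0.568 FPKM, with 20 to 89 fragments per library over all groups.

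The TET dioxygenases oxidise methylcytosine, the first step of active demethylation. Tet3 and Tet2 were the higher forms. Tet3 measured 3.45, 3.03 and 2.30 FPKM in SAHH-het+betaine libraries, 1.56, 3.37 and 2.52 FPKM in SAHH-het libraries, and 2.61, 3.71 and 2.75 FPKM in SAHH-WT libraries. Its groups overlapped. Tet2 (ENSMUSG00000040943, chromosome 3, 133463679 to 133545139, minus strand), often mutated in human clonal haematopoiesis, measured 1.57, 1.29 and 1.13 FPKM in SAHH-het+betaine libraries, 1.43, 2.36 and 1.04 FPKM in SAHH-het libraries, and 3.27, 2.24 and 1.68 FPKM in SAHH-WT libraries. Each SAHH-het+betaine library lay below each SAHH-WT library. SAHH-het+betaine minus SAHH-WT gave a log2 difference of -0.63 (SE 0.292, adjusted p = 0.618), the smallest p of that comparison among these genes. SAHH-WT 1, the library with adrenal cortex genes, was the highest, and without it the difference was -0.43. Tet1 stayed between 0.0398 and 0.257 FPKM.

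Methylation of H3K36 marks the bodies of transcribed genes. All 5 genes grouped under H3K36 here had log2 differences below 0 in SAHH-het minus SAHH-WT, from -0.33 to -0.14. After the exon length and GC correction it was 4 of 5. Ash1l, which keeps developmental genes active, ranged from 2.90 to 6.14 FPKM over the 9 libraries, and Smyd2, which also methylates proteins other than histones, from 3.93 to 6.55 FPKM, with overlap between all groups. Nsd1, the dimethylating enzyme with the highest level of this role, measured 7.29, 6.24 and 5.28 FPKM in SAHH-het+betaine libraries, 4.87, 7.34 and 6.00 FPKM in SAHH-het libraries, and 6.63, 7.93 and 5.75 FPKM in SAHH-WT libraries. Setd2, the trimethylating enzyme, measured 6.01, 5.86 and 5.15 FPKM in SAHH-het+betaine libraries, 4.49, 5.58 and 5.13 FPKM in SAHH-het libraries, and 5.59, 7.57 and 5.91 FPKM in SAHH-WT libraries. Only for Setd2 of these 5 did the SAHH-het and SAHH-WT libraries not overlap. Its log2 difference of -0.29 (SE 0.167, adjusted p = 0.464) was -0.05 with the exon length and GC correction and -0.17 without SAHH-WT 2. Setd5 measured 4.08, 3.49 and 3.74 FPKM in SAHH-het+betaine libraries, 3.15, 5.25 and 3.53 FPKM in SAHH-het libraries, and 6.37, 4.99 and 3.66 FPKM in SAHH-WT libraries, with a log2 difference of -0.34 for SAHH-het+betaine minus SAHH-WT (SE 0.239, adjusted p = 0.674). Leaving out SAHH-WT 1 gave -0.16 for Setd5, and leaving out SAHH-WT 3 gave -0.53.

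Among the H3K9 methyltransferases, the partners Ehmt2 and Ehmt1 shared a pattern across the groups. Ehmt2 (ENSMUSG00000013787, chromosome 17, 34898469 to 34914052, plus strand) measured 17.97, 16.3 and 16.0 FPKM in SAHH-het+betaine libraries, 19.1, 26.2 and 20.3 FPKM in SAHH-het libraries, and 21.4, 20.0 and 15.7 FPKM in SAHH-WT libraries. Ehmt1 measured 4.72, 4.28 and 4.06 FPKM in SAHH-het+betaine libraries, 4.79, 6.27 and 5.20 FPKM in SAHH-het libraries, and 4.33, 5.14 and 4.23 FPKM in SAHH-WT libraries. For both partners each SAHH-het+betaine library lay below each SAHH-het library, and the SAHH-WT libraries overlapped both groups. The log2 difference for SAHH-het+betaine minus SAHH-het was -0.36 for Ehmt2 (SE 0.182, adjusted p = 0.655) and -0.28 for Ehmt1 (SE 0.160, adjusted p = 0.683). Without SAHH-het 2, the highest library for both, these were -0.23 and -0.18. Setdb1, which works with the corepressor Trim28 on transposable elements, measured 4.10, 3.55 and 3.52 FPKM in SAHH-het+betaine libraries, 4.76, 4.71 and 3.79 FPKM in SAHH-het libraries, and 4.98, 5.12 and 4.12 FPKM in SAHH-WT libraries. Its SAHH-het+betaine libraries lay below all SAHH-WT libraries, with a log2 difference of -0.31 (SE 0.161, adjusted p = 0.626). Against SAHH-het the difference was -0.22 (SE 0.161, adjusted p = 0.756), and those groups overlapped. Suv39h1, which marks pericentric heterochromatin, measured 1.58, 1.3 and 1.03 FPKM in SAHH-het+betaine libraries, 1.76, 1.71 and 1.06 FPKM in SAHH-het libraries, and 2.17, 2.06 and 1.65 FPKM in SAHH-WT libraries. The log2 difference of Suv39h1 for SAHH-het+betaine minus SAHH-WT was -0.45 (SE 0.227, adjusted p = 0.619), and those groups did not overlap. Setdb2 had the log2 difference farthest from 0 in SAHH-het minus SAHH-WT, -0.61 (SE 0.358, adjusted p = 0.476). That value rested on SAHH-het 1 at 0.697 FPKM, or 39 fragments, and on SAHH-WT 2 at 3.95 FPKM, with the other libraries between 1.59 and 2.10 FPKM. Without SAHH-het 1 it was -0.27, and without SAHH-WT 2 it was -0.29.

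Dot1l, the H3K79 methyltransferase and the only histone lysine methyltransferase in the list without a SET domain, measured 7.75, 8.48 and 7.24 FPKM in SAHH-het+betaine libraries, 7.89, 12.4 and 8.10 FPKM in SAHH-het libraries, and 10.01, 7.23 and 5.95 FPKM in SAHH-WT libraries. Its groups overlapped.

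Among the 10 histone demethylases, 8 had a log2 difference below 0 in SAHH-het minus SAHH-WT, and the exceptions were Kdm6b and Kdm4b. Kdm1a, the flavin-dependent enzyme that acts on mono- and dimethylated H3K4, had the highest level of this role and the least variable values. It measured 6.20, 6.14 and 6.31 FPKM in SAHH-het+betaine libraries, 6.37, 7.91 and 6.75 FPKM in SAHH-het libraries, and 8.05, 7.68 and 6.49 FPKM in SAHH-WT libraries. Each SAHH-het+betaine library lay below every library of the other groups, with a log2 difference against SAHH-WT of -0.23 (SE 0.149, adjusted p = 0.661). Kdm3a, an H3K9 demethylase induced by low oxygen, measured 4.72, 4.07 and 3.49 FPKM in SAHH-het+betaine libraries, 4.97, 6.22 and 3.54 FPKM in SAHH-het libraries, and 5.97, 5.88 and 4.96 FPKM in SAHH-WT libraries. Its log2 difference for SAHH-het+betaine minus SAHH-WT was -0.41 (SE 0.215, adjusted p = 0.622), without overlap.

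The H3K27 demethylases Kdm6a and Kdm6b, which undo the mark of PRC2, did not share a pattern across the groups. Kdm6a, on the X chromosome and transcribed from both copies in female mice, measured 5.45, 4.88 and 3.73 FPKM in SAHH-het+betaine libraries, 3.5, 5.57 and 3.65 FPKM in SAHH-het libraries, and 5.61, 7.13 and 4.85 FPKM in SAHH-WT libraries. The log2 difference of Kdm6a for SAHH-het minus SAHH-WT was -0.44 (SE 0.232, adjusted p = 0.444), or -0.19 with the exon length and GC correction. Kdm6b, an enzyme induced by inflammatory signals, measured 6.22, 7.21 and 6.29 FPKM in SAHH-het+betaine libraries, 4.79, 9.76 and 7.61 FPKM in SAHH-het libraries, and 5.39, 5.20 and 5.38 FPKM in SAHH-WT libraries. Each SAHH-het+betaine library lay above each SAHH-WT library, and the SAHH-het libraries lay on both sides. Kdm2a, an H3K36 demethylase that binds unmethylated CpG, measured 6.72, 5.27 and 4.81 FPKM in SAHH-het+betaine libraries, 3.92, 5.86 and 4.70 FPKM in SAHH-het libraries, and 6.26, 8.41 and 5.6 FPKM in SAHH-WT libraries. Its log2 difference for SAHH-het minus SAHH-WT was -0.44 (SE 0.217, adjusted p = 0.421), and SAHH-het 2 overlapped the SAHH-WT range. The Kdm2a difference was -0.29 without SAHH-WT 2 and -0.25 with the exon length and GC correction. Kdm5a, an H3K4 demethylase, measured 4.34, 4.17 and 2.93 FPKM in SAHH-het+betaine libraries, 2.18, 3.37 and 3.38 FPKM in SAHH-het libraries, and 3.81, 4.45 and 3.02 FPKM in SAHH-WT libraries. Its groups overlapped, with a log2 difference of 0.31 for SAHH-het+betaine minus SAHH-het (SE 0.231, adjusted p = 0.753). The Kdm5a difference was 0.14 without SAHH-het 1 and likewise 0.14 with the exon length and GC correction. The other demethylases overlapped between all groups. Over the 9 libraries the H3K9 and H3K36 demethylase Kdm4a ranged from 3.43 to 8.40 FPKM, its relative Kdm4b from 5.23 to 7.32 FPKM, Kdm2b, which brings a PRC1 complex to CpG islands, from 0.379 to 1.46 FPKM, and Kdm5b from 1.22 to 2.76 FPKM.

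Counted over all roles, higher genes without overlap were less frequent than in the whole table in all 3 comparisons. For lower genes the share was near that of all genes in both comparisons that involve SAHH-het libraries. It was above that of all genes in SAHH-het+betaine against SAHH-WT. These are counts of 1 to 7 genes. In SAHH-het against SAHH-WT, 1 of 40 genes was higher without overlap (2.5%, against 8.33% of all genes) and 4 were lower (10%, against 8.28%), namely Suz12, Setd7, Setd2 and Smyd3. In SAHH-het+betaine against SAHH-het, 2 were higher (5%, against 8.21%), Suz12 and Setd7, and 4 were lower (10%, against 8.16%), Ehmt2, Ehmt1, Setd1a and Kdm1a. In SAHH-het+betaine against SAHH-WT, 1 was higher (2.5%, against 9.29%), Kdm6b, and 7 were lower (17.5%, against 7.64%), Tet2, Suv39h1, Kdm3a, Setdb1, Kdm1a, Smyd3 and Dnmt3b. An exact permutation test of 3 against 3 libraries cannot give a two-sided p below 0.1, so a lack of overlap cannot reach p under 0.05 for any single gene.

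These are long genes, and exon length moved with the comparisons. The 40 tested genes had a median exon length of 8544 bases, against 3714 over all tested genes, and 39 of 40 were longer than that median. The longest decile of all genes, which held 19 of the 40, had a median log2 difference of -0.13 in SAHH-het minus SAHH-WT, 0.08 in SAHH-het+betaine minus SAHH-het and -0.06 in SAHH-het+betaine minus SAHH-WT. The second-shortest decile had 0.22, -0.15 and 0.05 in the same order, and the shortest 0.02, -0.05 and -0.07, so the medians did not run in 1 direction over all lengths. GC content of the exons moved with the comparisons too. In SAHH-het minus SAHH-WT the median of all genes was -0.20 in the decile with the lowest GC and 0.27 in the decile with the highest, and in SAHH-het+betaine minus SAHH-het it was 0.09 and -0.17.

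Taking each library's smoothed dependence on exon length off the values left a median of -0.13 for the 40 genes in SAHH-het minus SAHH-WT, with 29 of 40 below 0. Taking off length and GC together left -0.11, again with 29 of 40 below 0. The same corrections gave -0.03 and -0.05 in SAHH-het+betaine minus SAHH-het, and -0.12 and -0.10 in SAHH-het+betaine minus SAHH-WT. A split at 50% GC, chosen after the values were seen, divided the genes evenly. In SAHH-het minus SAHH-WT all 20 under 50% GC lay below 0, with a median of -0.31, and 12 of 20 with higher GC, with a median of -0.07. Among all 4098 tested genes with exon lengths between the lower and upper quartile of the enzyme genes, the median was -0.09 and 59.5% lay below 0. In that length range, 68.7% of those under 50% GC lay below 0, with a median of -0.15, and 43.0% of those with higher GC, with a median of 0.06. Whether the dependence on length and GC comes from the libraries' preparation or from the tissue was not tested.

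**Figure D4:**
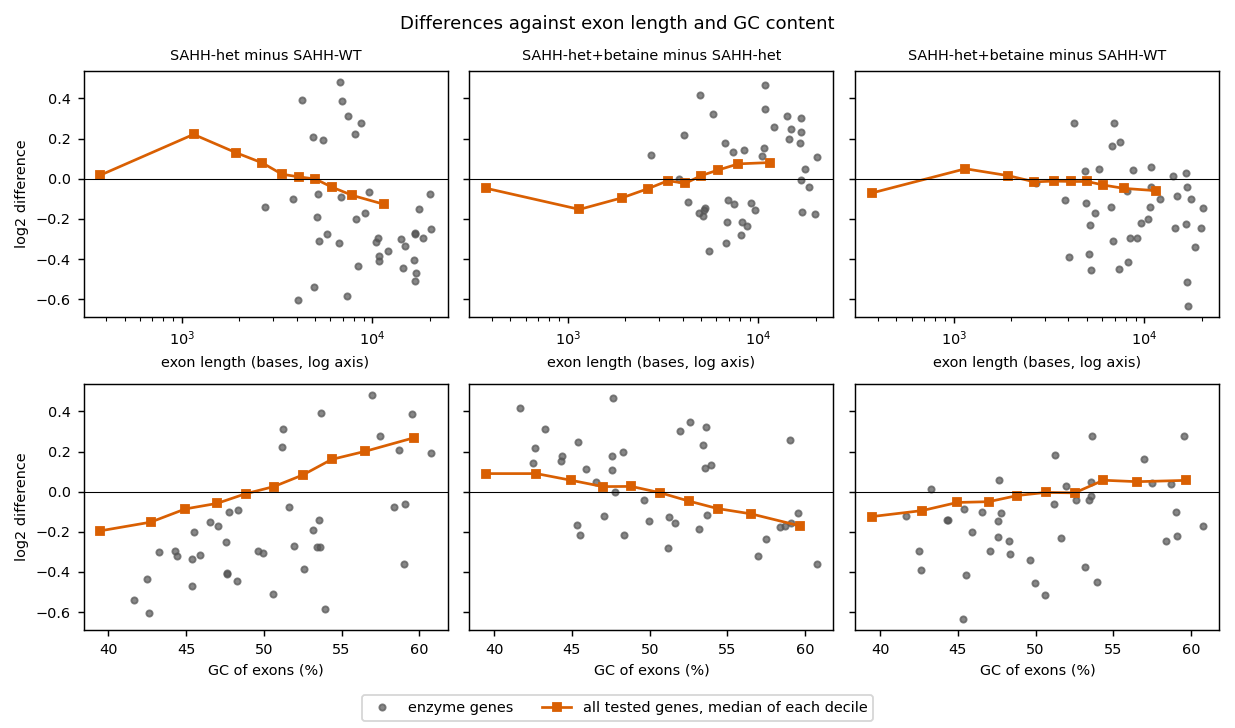
Log2 differences of the 40 tested enzyme genes (points) against exon length on a log axis (top) and exon GC content (bottom) in the 3 comparisons, with the median of each decile of all tested genes as a line. In SAHH-het minus SAHH-WT the line stands at 0.02 in the shortest decile and 0.22 in the next, falls to -0.13 in the longest decile and climbs to 0.27 in the decile with the highest GC, and the points lie mostly below it.

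The enzyme genes also moved together from library to library within groups. The median deviation of the 40 genes from their own means was 0.07, -0.06 and -0.20 on the log2 scale in SAHH-het+betaine libraries, -0.33, 0.19 and -0.09 in SAHH-het libraries, and 0.17, 0.29 and -0.08 in SAHH-WT libraries. The SD of this median within groups was 0.203, which is of the size of the group differences above. In the same order of libraries, the longest decile of all tested genes deviated by 0.09, 0.01 and -0.08, by -0.19, 0.02 and -0.07, and by 0.06, 0.10 and -0.02. With the exon length and GC correction the medians of the enzyme genes were 0.02, -0.09 and -0.12, then -0.18, 0.17 and -0.02, then 0.09, 0.22 and -0.08. Of the 42 genes, 21 had their lowest value in SAHH-het 1, while 17 had their highest in SAHH-WT 2, 11 in SAHH-WT 1 and 11 in SAHH-het 2. Uhrf1, Setdb2 and Dnmt1 are examples given above. SAHH-het 1 carried the most skeletal muscle RNA, with 8752 FPKM over a list of 6 genes. The other libraries had 3.27 to 2303 FPKM, the highest of them SAHH-WT 1, where the enzyme median was 0.17. SAHH-WT 2 carried the most B cell RNA. The next highest in B cell RNA, SAHH-het+betaine 1 at 170 FPKM, had an enzyme median of 0.07, and SAHH-het 2, at 17.6 FPKM, had 0.19. The part of these tissues in the deviations was not tested.

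**Figure D5:**
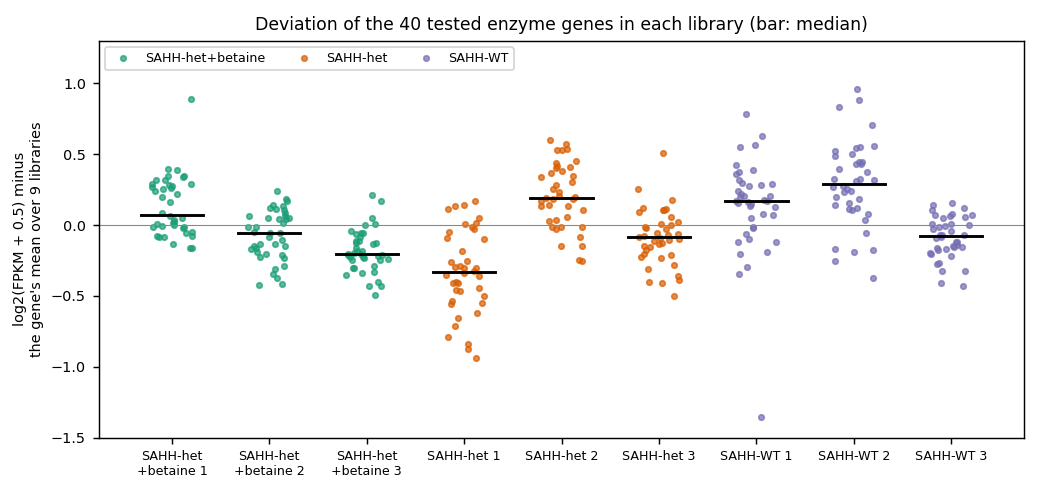
Deviation of the 40 tested enzyme genes from their own means over 9 libraries, on the log2(FPKM + 0.5) scale, with 1 point per gene and a bar at the library's median. The bars run from -0.33 in SAHH-het 1 to 0.29 in SAHH-WT 2, and libraries of 1 group lie on both sides of 0 in all 3 groups.

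Other genes of the same pathways, from lists of readers and repair enzymes, PRC1 and PRC2 partners, partners of the H3K4 enzymes, further methyltransferases and demethylases, and heterochromatin proteins, gave no called gene. Over these 7 lists, 0 of 84 tested genes were called in either direction in each comparison. In SAHH-het minus SAHH-WT, where 49.1% of all genes lay below 0, so did 10 of 12 further demethylases (median -0.24), 6 of 8 PRC2 accessory subunits (-0.24), 8 of 11 partners of the H3K4 enzymes (-0.08) and 6 of 6 heterochromatin proteins (-0.37). The counts were 11 of 18 for PRC1 subunits (-0.03), 8 of 14 for readers and repair enzymes (-0.05) and 8 of 15 for further methyltransferases (-0.01). In SAHH-het+betaine minus SAHH-WT, where 52.1% of all genes lay below 0, so did 6 of 12 further demethylases (-0.02), 6 of 8 PRC2 accessory subunits (-0.13), 8 of 11 partners of the H3K4 enzymes (-0.08) and 6 of 6 heterochromatin proteins (-0.24). There the counts were 13 of 18 for PRC1 subunits (-0.24), 9 of 14 for readers and repair enzymes (-0.18) and 7 of 15 for further methyltransferases (0.11). Among the PRC2 subunits in SAHH-het minus SAHH-WT was Mtf2, a subunit that guides PRC2 to CpG islands, at -0.46 (adjusted p = 0.462). Among the heterochromatin proteins Trim28, the partner of Setdb1, had a mean FPKM of 15.2 ± 2.30 in SAHH-het+betaine, 16.1 ± 2.39 in SAHH-het and 23.0 ± 4.14 in SAHH-WT libraries (SD, n = 3 each). Its log2 difference was -0.58 in SAHH-het+betaine minus SAHH-WT (adjusted p = 0.618) and -0.50 in SAHH-het minus SAHH-WT (adjusted p = 0.386). Psip1, which ties Kmt2a complexes to chromatin, had a log2 difference of -0.70 in the first of these comparisons (adjusted p = 0.618) and -0.55 in the second (adjusted p = 0.388). The smallest p of all these lists belonged to Hr, a histone demethylase of the JmjC family known from hair growth. Hr measured 4.71, 4.39 and 4.50 FPKM in SAHH-het+betaine libraries, 1.17, 1.67 and 1.68 FPKM in SAHH-het libraries, and 1.80, 2.41 and 2.92 FPKM in SAHH-WT libraries. Its SAHH-het+betaine libraries stood above all others, and the log2 difference against SAHH-het of 1.34 did not pass the test over all genes (adjusted p = 0.272). Kmt5a and Kmt5c, which methylate H4K20, differed in opposite directions between SAHH-het+betaine and SAHH-het libraries. Kmt5a averaged 35.2 ± 4.71, 21.3 ± 5.01 and 21.1 ± 2.46 FPKM, and Kmt5c averaged 9.01 ± 1.11, 14.6 ± 3.49 and 7.91 ± 1.59 FPKM in SAHH-het+betaine, SAHH-het and SAHH-WT libraries (SD, n = 3 each). Neither passed the test in any comparison, and the lowest adjusted limma p was 0.304, for Kmt5c in SAHH-het minus SAHH-WT.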

How the data were processed

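RNA-seq of vascular tissue gave 9 libraries. Tissue was frozen and RNA extracted with Trizol, per the labels' protocols, and alignment used HISAT2 2.0.5 and the mm10 build, per the submitters' processing notes. The counter, strand setting, annotation release and FPKM formula are not given in these sources. FPKM were computed by the authors and deposited with 1 column per library. Gene names, exon lengths (union of exons) and GC came from GENCODE M21 on GRCm38, which matched 54495 of 54532 genes. With these lengths, 97.1 to 97.3% of values in a library were whole fragments within 0.1. The divisor behind the FPKM followed median-of-ratios size factors to within 0.811%.

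Groups came from the genotype labels. Each comparison was fitted with limma 3.58.1 in R 4.3.3 (eBayes with a trend, two-sided) on log2(FPKM + 0.5), with all 9 libraries and 6 residual degrees of freedom, over genes that averaged 0.5 FPKM or more. The code was tested on simulated data. FPKM are not counts, so the count test named in the design text was not used. The correction for exon length and GC takes off a loess curve (span 0.3) of each library's deviations. Alternatives were other pseudocounts, filters, scalings, the replicate block, weights, voom on recovered fragments and leaving out each library. The GC correction, alone and with the block, and the length correction with the block in 2 groups were added after seeing the data.

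Deviations of same-numbered SAHH-het and SAHH-WT libraries had correlations of 0.29, 0.23 and 0.18, against -0.33 to 0.10 for differently numbered pairs of these groups. The other same-numbered pairs had -0.35 to 0.08. Over all groups a differently numbered pair reached 0.39 (SAHH-het+betaine 3 with SAHH-het 1), and 4 of 9 libraries correlated best with their own number. A pairing is thus not given by the labels and not settled by these values. Members and lists were chosen with earlier results of these data known. A log2 difference with its p is printed for the 8 members with the smallest p in each comparison. From the other lists it is printed for genes among the smallest p-values. Levels per library are given for members so named and for the highest of each role. Outside this rule are the levels of Uhrf1 and Kdm6b, part of those of Dnmt3b, and the interval of Dnmt1. Exons of 19 members overlap those of another gene, 3 by more than 10% of their bases (Setd1a, Smyd2 and Suv39h1). For Smyd2 and Suv39h1 the other gene lies on the opposite strand, and reads there cannot be told apart without strand. The gene that shares 51.8% of the Setd1a exon bases lies on the same strand, so strand would not tell those reads apart.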

Additional observations from a re-analysis of the deposited data

How the results depend on the processing

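No enzyme gene was called under any of the 28 settings run. The median difference of the enzyme genes in SAHH-het minus SAHH-WT stayed below 0 under the 24 alternatives that give it, from -0.53 to -0.11. Every setting gave the same sign for 27 of 40 genes in SAHH-het minus SAHH-WT, 21 in SAHH-het+betaine minus SAHH-het and 20 in SAHH-het+betaine minus SAHH-WT. TPM rescaling moved the median of all genes to -0.26 in SAHH-het minus SAHH-WT and -0.35 in SAHH-het+betaine minus SAHH-WT, and the enzyme genes' median to -0.53 and -0.50. In SAHH-het+betaine minus SAHH-het the median of 0.02 turned to -0.056 with TPM, -0.035 with the exon length correction and -0.054 with length and GC, the last 2 also with the replicate block, and leaving out a library gave -0.12 to 0.16. Leaving out a library gave -0.37 to -0.13 in SAHH-het minus SAHH-WT and -0.24 to -0.02 in SAHH-het+betaine minus SAHH-WT. Genes called among all, 4 in SAHH-het minus SAHH-WT, were 7 without a filter, 2 with TPM, 1 with 2 groups only, and 1 with the replicate block, alone or with either correction. They were 0 with the block in 2 groups only, with or without the length correction, and 1 to 5 without a library. In SAHH-het+betaine minus SAHH-het, the 3 calls were 6 with sample weights, 5 at adjusted p under 0.1, 1 with the replicate block, alone or with either correction, 0 with the block in 2 groups only, and 1 to 2 without a library. In SAHH-het+betaine minus SAHH-WT, the 0 calls were 3 without a filter, 3 with sample weights and 0 to 2 without a library, 2 of them without SAHH-WT 1. The causes were not tested. The replicate block changed no call of an enzyme gene. Fragment numbers limit Tet1, Suv39h2, Dnmt3b and Uhrf1 most.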
